A study of Homo sapiens with 8 samples.

Results

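The smORFs (small open reading frames) of HMGCS1, MVD, IDI1 and FDPS were taken from a Ribo-Seq table of 24199 smORFs. A smORF was included when 1 of these names stood in the gene field of its deposited annotation, which gave 15 smORFs. HMGCS1 had 2, MVD had 2, IDI1 had 7 and FDPS had 4, and together these are 4 of the 7369 host gene names in the table. Ribo-Seq sequences the RNA fragments covered by ribosomes, here called footprints. All smORFs counted below lie in untranslated regions and not in the sequence that encodes the enzyme.

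The cells were Caco-2, a long-established line from a human colon tumour whose cells come to resemble absorptive enterocytes on differentiation. There were 4 groups with 2 libraries each, labelled replicate 1 and 2. One group was undifferentiated Caco-2 cells and 3 were differentiated. The differentiated groups were a control without micelles, cells given micelles without lipid (made of taurocholate, a bile salt), and cells given lipid micelles with BSA, oleic acid and cholesterol. For mass spectrometry, the paper lysed undifferentiated Caco-2 cells sooner and kept differentiated ones, control included, overnight in medium without serum. Whether these libraries were prepared in that way is not stated, so culture time and serum may differ along with differentiation. The lipid comparison therefore changed oleic acid, cholesterol and albumin together. All cells come from 1 tumour line, and the labels do not say whether replicates were separate cultures, so the p-values measure only the spread between these libraries.

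The mevalonate pathway builds the isoprenoid units from which cholesterol, ubiquinone, dolichol and protein prenyl groups are made. HMGCS1 condenses acetoacetyl-CoA with acetyl-CoA to HMG-CoA, MVD decarboxylates phosphorylated mevalonate to isopentenyl diphosphate, IDI1 isomerises that to dimethylallyl diphosphate, and FDPS joins the units into farnesyl diphosphate. In enterocytes and other cells the pathway genes are targets of SREBP-2, encoded by SREBF2, a transcription factor that is held inactive when cell cholesterol is high.

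Of the 15 smORFs, the authors classed 6 as uORFs, in the leader ahead of the main coding sequence, and 9 as dORFs, in the 3′ UTR. Over all 24199 smORFs, 69.9% were uORFs and 6.60% were dORFs. Both HMGCS1 smORFs and all 4 FDPS smORFs were uORFs, and both MVD smORFs and all 7 IDI1 smORFs were dORFs. Each of the 15 lay within 1 exon, wholly in UTR of its gene in GENCODE release 44, with no coding sequence on the same strand. None had a positive mean PhyloCSF score, a measure of protein-coding conservation, against 1.75% of all smORFs. Their median RibORF score, which combines the coverage of a frame with the codon periodicity of its footprints, was 0.934 against 0.876 over all smORFs. The score is deposited per smORF and not per library, so it does not show periodicity in each library compared here.

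The region around each start shows what kind of frame was counted. The windows below hold the first codon of the frame in capitals with 9 bases on either side, read 5′ to 3′ on the gene's strand from hg38. The windows show both HMGCS1 frames, the MVD frame with the most footprints, the IDI1 smORF with the most footprints and the one nearest the main stop codon, and 1 smORF of each of the FDPS reading frames.
HMGCS1 IEC_20643 (chr5:43313186-43313206, minus strand): gcaccgtgaGCGgggccgggc
HMGCS1 IEC_20644 (chr5:43313074-43313094, minus strand): gggcgttgaGGTctaggtatt
MVD IEC_14576 (chr16:88652450-88652470, minus strand): agggagcggATGtggtgggct
IDI1 IEC_17457 (chr10:1040617-1040637, minus strand): tcattctgaGTTgattgtgtg
IDI1 IEC_17461 (chr10:1041121-1041141, minus strand): ttagaatgaCTTtttcctttt
FDPS IEC_03168 (chr1:155308909-155308929, plus strand): cttttaggaGTAcccgccaac
FDPS IEC_03169 (chr1:155308967-155308987, plus strand): tgagagaggATGtgtgctggg

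Of the 15 frames, 5 began with ATG (33.3%, against 43.4% of all smORFs). These were MVD IEC_14576, FDPS IEC_03169 and IDI1 IEC_17455, IEC_17456 and IEC_17460. The other 10 held no in-frame ATG at all, and 7 of them (70.0%) began directly after an in-frame stop codon, which is the tga ahead of the capitals at both HMGCS1 frames and at both IDI1 frames shown. Among 8700 single-exon smORFs in the table that do not begin with ATG, 100.0% likewise held no in-frame ATG and 52.34% followed a stop codon in the same way. For those 7 frames the deposited start is thus the edge of the open frame, and an initiation codon is not given. Only IDI1 IEC_17458, with ATT, began with a codon that differs from ATG by 1 base (10.0% of the 10, against 16.18% of those 8700). All 15 frames were followed by a stop codon in the genome, as were 95.78% of 16012 single-exon smORFs.

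In the transcripts, the leader smORFs and the 3′ UTR smORFs sat differently. Both HMGCS1 smORFs lay in exon 1 of 1 of 3 coding transcripts, with 0 bases in exons of the MANE Select transcript, the representative transcript of the gene. They are IEC_20643 (chr5:43313027-43313197, 57 codons) and, within it in another frame, IEC_20644 (chr5:43313035-43313085, 17 codons), and they ended 15 and 23 bases before the main coding sequence of that alternative transcript. FDPS IEC_03169 (chr1:155308976-155309071, 32 codons) also had 0 bases in MANE Select exons and lay in exon 1 of 3 of 9 coding transcripts. It ended 6 to 42 bases before the main coding sequences of those transcripts. Whether footprints that reach past the end of a smORF were counted is not given in the sources used here. FDPS IEC_03168 (chr1:155308918-155309025, 36 codons) had 48 of its 108 bases in the first MANE Select exon and read on past the end of that exon. It shared 50 bases with IEC_03169 in another frame, so a footprint there can be counted for both. The MVD and IDI1 smORFs lay in the last exon, 66 and 113 bases (MVD) and 57 to 828 bases (IDI1) after the main stop codon. IDI1 lies opposite an intron of IDI2-AS1, an antisense RNA. Because the strand setting of the counting is not given in the sources used here, reads of the 2 strands cannot be told apart there.

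Library totals ran from 506382 to 884711 smORF counts, and the 4 genes held 386 to 947 counts per library with overlapping smORFs counted once. Values are given as CPM, the smORF counts relative to the library total after scaling by TMM, and 1 count was worth 1.12 to 1.89 CPM. For each gene, the most counted smORF of each group of overlapping smORFs was summed. The gene value is therefore IEC_20643 for HMGCS1, IEC_14576 for MVD, the sum of 7 separate dORFs for IDI1, and for FDPS IEC_03168, whose counts IEC_07552 repeats exactly. Levels are compared between genes only per 100 bases of smORF. In the control group these levels were 667 ± 82.9 CPM per 100 bases (SD, n = 2) for FDPS, 22.8 ± 0.249 for IDI1, 21.5 ± 8.55 for MVD and 18.6 ± 0.287 for HMGCS1. FDPS stood above the other genes in every group, and in the control the IDI1 level lay within the spread of MVD.

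**Figure D1:**
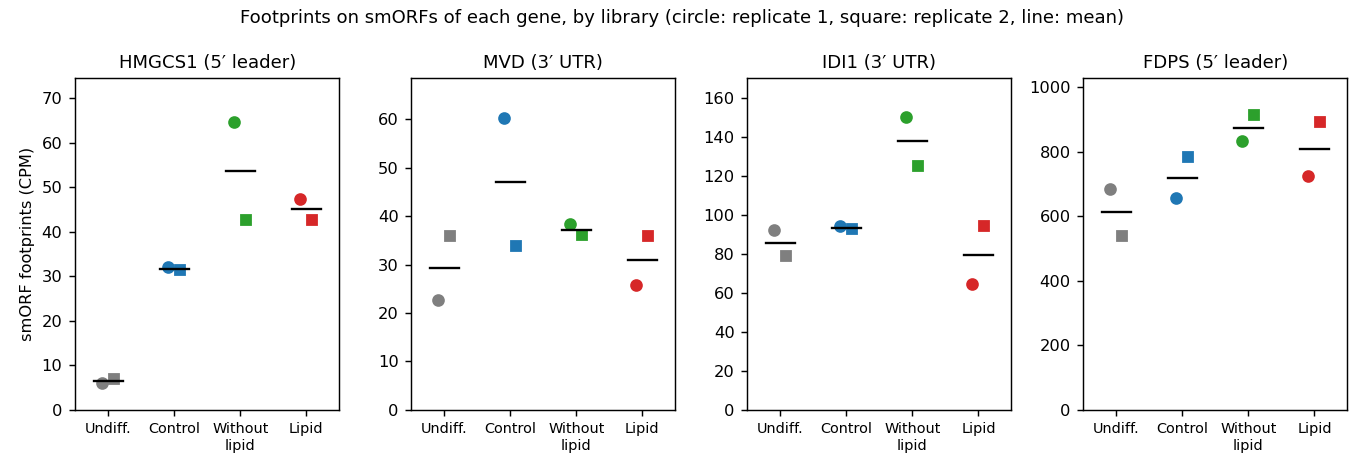
Footprints in CPM (vertical axis, from 0) on the smORFs of HMGCS1, MVD, IDI1 and FDPS in each of the 8 libraries, with a line at the mean of the 2 libraries of a group. HMGCS1 is lowest in undifferentiated cells, at 6.04 and 6.85 CPM, and the IDI1 libraries with lipid micelles, at 64.5 and 94.4 CPM, sit below those with micelles without lipid, at 150 and 125 CPM.

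The main question was whether lipid in the micelles altered footprints on these genes. All 4 genes had lower fitted values with lipid micelles than with micelles without lipid, as had 51.7% of all host genes tested, and none passed the test. Leaving out a single library could change the sign for HMGCS1 (up to 0.073 on the log2 scale) and for FDPS (up to 0.035). IDI1 had the widest difference, at 0.583 of its level without lipid, while HMGCS1, MVD and FDPS stood at 0.846, 0.840 and 0.924. By edgeR's quasi-likelihood test with Benjamini-Hochberg adjustment, a gene was called where its adjusted p was under 0.05 and its log2 fold change was at least 1 in size. By that rule 0 of 4837 host genes (0%) were called in this comparison, and 193 (3.99%) had an unadjusted p under 0.05, of which IDI1 was the only 1 of the 4 genes. DESeq2, run as an alternative, called 1 host gene, which was not 1 of the 4.

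IDI1, the isomerase, had 86 and 94 counts with micelles without lipid and 45 and 84 with lipid micelles. The corresponding levels were 150 and 125 CPM without lipid against 64.5 and 94.4 CPM with lipid. Both libraries with lipid were below both without, which was the case for 2 of the 4 genes (IDI1 and MVD) and for 16% of all host genes tested. The log2 fold change was -0.78 ± 0.26 (SE), with a 95% interval from -1.32 to -0.23, an unadjusted p of 0.00836 and an adjusted p of 0.996 by edgeR. This placed IDI1 at percentile 4.59 of the fold changes of all host genes tested. Leaving out each library in turn gave values between -1.09 (without the second lipid library) and -0.53 (without the first), so the size of the difference rests on few libraries while its sign did not change in these fits.

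The 7 IDI1 smORFs do not overlap, so that each counts its own stretch of the 3′ UTR, though in the same libraries. IEC_17457 (chr10:1040551-1040628) had 36.7 and 34.7 CPM without lipid and 14.3 and 23.6 with it. IEC_17461 (chr10:1041037-1041132), the nearest to the main stop codon, had 26.2 and 28.02 CPM without lipid and 12.9 and 20.2 with it. IEC_17459 (chr10:1040881-1040940) had 22.7 and 22.7 CPM against 12.9 and 15.7. In these 3 the lipid libraries lay below both libraries without lipid. IEC_17458 (chr10:1040687-1040779) did so as well, at 21.0 and 18.7 CPM against 10.0 and 11.2, and 8 of its 66 stretches of 28 bases also occur on chromosome 2. IEC_17456, which overlaps an annotated repeat, had 24.5 and 5.34 CPM without lipid and 7.17 and 8.99 with it, so that its groups overlapped. IEC_17455, also in a repeat, and IEC_17460 were too low to be tested, with 2 to 8 and 2 to 9 counts per library.

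In the other groups, IDI1 smORF levels were of the same order. IEC_17457 had 28.7 and 15.4 CPM in undifferentiated cells and 32.1 and 22.6 in control cells. IEC_17461 had 16.6 and 17.1 CPM in undifferentiated cells and 20.8 and 10.0 in control cells. IEC_17459 had 16.6 and 11.99 CPM in undifferentiated cells and 17.0 and 17.6 in control cells. In these 3 both libraries with micelles without lipid lay above all 6 others, as in 4.03% of all smORFs tested. For IEC_17458 the 2 remaining groups had 3.02 and 10.3 CPM (undifferentiated) and 7.55 and 15.1 CPM (control). It too had both libraries with micelles without lipid above the others. FDPS IEC_03169 and IEC_07306, which overlap and share reads, did so as well, for 6 of the 13 smORFs tested. IEC_17456 had 10.6 and 17.1 CPM in undifferentiated cells and 7.55 and 7.53 in control cells, with no group standing apart.

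**Figure D2:**
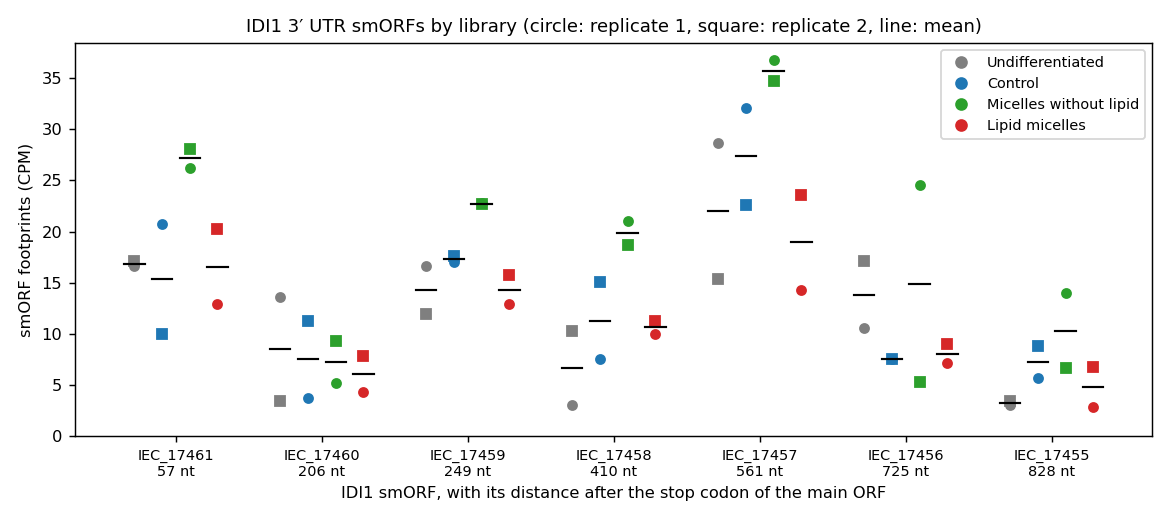
Footprints in CPM (vertical axis) on each of the 7 IDI1 smORFs, ordered along the 3′ UTR by distance from the main stop codon, with 8 libraries each and a line at each group mean. In IEC_17457, IEC_17458, IEC_17459 and IEC_17461 both libraries with micelles without lipid lie above both with lipid micelles.

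Across the smORFs, 13 of the 15 passed the filter on low counts, and all 13 had a log2 fold change below 0 with lipid micelles against micelles without lipid. Of all 15182 smORFs tested, 51.2% were below 0. The median was -0.36 over the 13 and -0.011 over all, and the 13 include overlapping frames that share reads. In 8 of the 13 both lipid libraries were below both libraries without lipid, as in 16.9% of all smORFs tested. No smORF was called by the same rule, neither among the 13 nor among all 15182 (0%), and 627 (4.13%) had an unadjusted p under 0.05, none of them among the 13. DESeq2 likewise called 0 smORFs here.

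HMGCS1, the synthase at the head of the pathway, had 37 and 32 counts without lipid and 33 and 38 with lipid micelles. In CPM these were 64.7 and 42.7 against 47.3 and 42.7, and the groups overlapped. The log2 fold change was -0.24 ± 0.32, with a 95% interval from -0.92 to 0.44, which takes in values of either sign. The inner frame IEC_20644 had 33.2 and 24.02 CPM without lipid and 30.1 and 23.6 with it, a log2 fold change of -0.085 ± 0.41.

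MVD, the decarboxylase, gave 38.5 and 36.0 CPM without lipid and 25.8 and 36.0 with lipid micelles, from 18 to 32 counts per library. The second lipid library was just below the lower of the others, at 35.96 against 36.02 CPM. Its log2 fold change was -0.25 ± 0.38, with a 95% interval from -1.07 to 0.57. The frame inside it, IEC_14577 (chr16:88652319-88652414), had 17.5 and 14.7 CPM without lipid and 11.5 and 11.2 with it, a log2 fold change of -0.49 ± 0.54.

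FDPS, the farnesyl diphosphate synthase, had 833 and 915 CPM without lipid and 724 and 891 with lipid micelles on IEC_03168, and the groups overlapped. The log2 fold change was -0.11 ± 0.24, with a 95% interval from -0.63 to 0.40. The other frame, IEC_03169, had 458 and 455 CPM without lipid and 330 and 381 with it. Those groups did not overlap, and the log2 fold change of -0.36 ± 0.24 had an adjusted p of 0.999 by edgeR. IEC_07306 (chr1:155308985-155309071), which is IEC_03169 without its first 9 bases, had 394 and 392 CPM against 284 and 339.

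**Figure D3:**
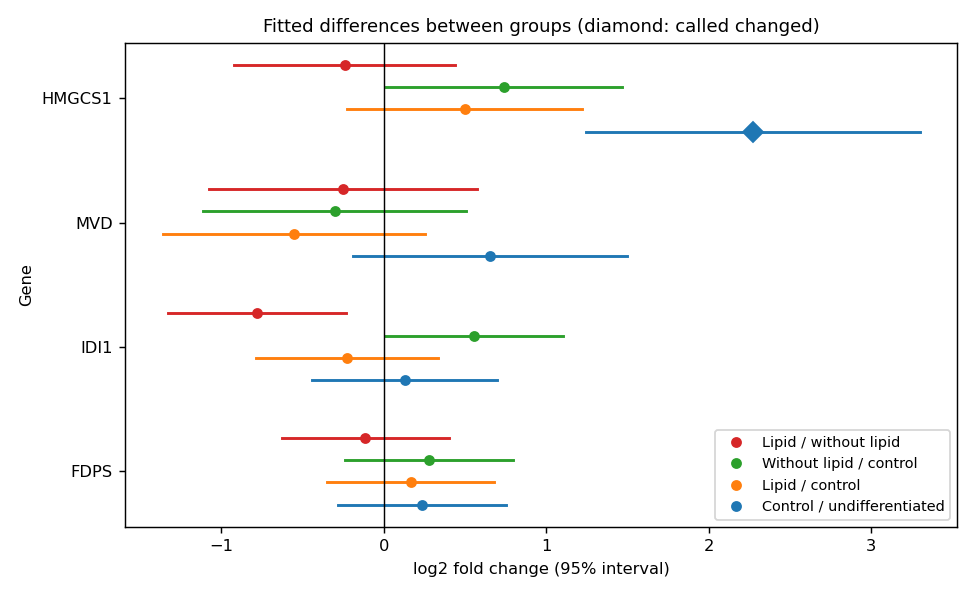
Fitted log2 fold changes of the 4 genes (horizontal axis) with 95% intervals for 4 comparisons of groups, where a diamond marks a called gene. HMGCS1 is the only diamond, at 2.27 for control against undifferentiated cells, and the IDI1 interval for lipid micelles against micelles without lipid runs from -1.32 to -0.23.

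Micelles without lipid were next compared with the differentiated control, to see what the bile salt micelle alone did. HMGCS1 and IDI1 had the larger differences, at 1.67 and 1.47 times the control, FDPS stood at 1.21 times and MVD at 0.811 times. None of the 4 was called, against 2 of 4837 host genes (0.0413%). HMGCS1 moved from 32.1 and 31.4 CPM in the control to 64.7 and 42.7, a log2 fold change of 0.74 ± 0.34 with an unadjusted p of 0.0457 and an adjusted p of 0.977 by edgeR. IDI1 moved from 94.3 and 92.9 CPM to 150 and 125, a log2 fold change of 0.55 ± 0.26 with an unadjusted p of 0.0477 and the same adjusted p by edgeR. In both, and in FDPS (657 and 783 CPM in the control), the libraries with micelles without lipid were both above the control, as in 16.7% of host genes. In 5.07% of host genes the unadjusted p was under 0.05. Among the 13 smORFs tested 2 had values below 0, against 48.9% of all smORFs, and 10 lay above the control in both libraries, against 16.2%. The 10 are not separate observations. They include IEC_07552, which repeats the counts of IEC_03168, and overlapping frames of FDPS and HMGCS1 that share reads. The count called was 0 of 15182 smORFs (0%), with 620 (4.08%) at an unadjusted p under 0.05 and 2 called by DESeq2, neither of them among the 13.

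Lipid micelles differed from the control by less than micelles without lipid did for HMGCS1, IDI1 and FDPS, and by more for MVD. The log2 fold changes were 0.50 ± 0.34 for HMGCS1, -0.55 ± 0.38 for MVD, -0.22 ± 0.26 for IDI1 and 0.17 ± 0.24 for FDPS, and 0 of 4837 host genes (0%) were called, with 229 (4.73%) at an unadjusted p under 0.05 and 0 by DESeq2. Of the 4 genes 2 were below 0, against 49.1% of host genes, and only HMGCS1 lay above the control in both libraries, against 19.2%. Of the 13 smORFs, overlapping frames included, 7 were below 0, against 49.9% of all smORFs, and none had an unadjusted p under 0.05, against 4.66%. IDI1 with lipid, at 64.5 and 94.4 CPM, overlapped its control range of 92.9 to 94.3 CPM. These 3 comparisons share groups, so they are not independent of each other: the group with micelles without lipid is 1 side of both comparisons in which IDI1 had an unadjusted p under 0.05.

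Differentiation, along with which culture time and serum may differ, was the 1 contrast in which any of the 4 genes was called. The HMGCS1 value, which is that of IEC_20643 alone, rose 4.82-fold from undifferentiated to differentiated control cells. IEC_20643 lies outside the MANE Select exons. MVD, IDI1 and FDPS were not called, at 1.57, 1.09 and 1.18 times. The FDPS value rests on taking IEC_03168 for the gene: with all 4 overlapping smORFs summed its log2 fold change was 0.64 ± 0.20 in place of 0.24 ± 0.24, with an adjusted p of 0.0243 by edgeR, still under the fold change needed for a call. That sum counts the same reads more than once, because IEC_07552 repeats the counts of IEC_03168 and the other frames overlap. Its SE and p therefore do not describe separate reads. Over all host genes 1672 of 4837 (34.6%) were called, 807 of them higher (16.7%). HMGCS1 had 4 and 4 counts in undifferentiated cells and 17 and 25 in control cells, or 6.04 and 6.85 CPM against 32.1 and 31.4 CPM. Both control libraries lay above both undifferentiated ones, as they did for IDI1 and for 33.1% of all host genes tested. The log2 fold change of HMGCS1 was 2.27 ± 0.48, with a 95% interval from 1.24 to 3.30 and an adjusted p of 0.00199 by edgeR. The inner frame IEC_20644 had 2 and 3 counts in undifferentiated cells (3.02 and 5.14 CPM) and 11 and 11 in control cells (20.8 and 13.8 CPM). The ratio of its summed counts, scaled for depth, was 4.13, with an exact 95% counting interval from 1.53 to 14.0, which covers counting error only.

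At FDPS the 2 leader frames differed in this comparison. IEC_03169 rose from 78.5 and 111 CPM in undifferentiated cells to 383 and 395 CPM in control cells, a 4.11-fold change with a log2 fold change of 2.04 ± 0.26 and an adjusted p of 1.68e-05 by edgeR. IEC_07306 within it rose likewise, from 67.9 and 92.5 CPM to 332 and 355 CPM (adjusted p = 1.29e-05). IEC_03168, which ends in the stretch it shares with IEC_03169, had 684 and 539 CPM in undifferentiated cells and 657 and 783 CPM in control cells. Its groups overlapped, with a log2 fold change of 0.24 ± 0.24 and an adjusted p of 0.476 by edgeR.

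The counts of IEC_03169 as a percentage of those of IEC_03168 give this contrast within each library; this ratio was chosen after the values were seen and is not tested. It was 11.5% and 20.6% in undifferentiated cells and 58.3% and 50.5% in control cells. With micelles without lipid it was 55.0% and 49.7%, and with lipid micelles 45.5% and 42.7%. The undifferentiated libraries were below all 6 differentiated ones, and both lipid libraries were the lowest of those 6. Whether the 2 frames were read from different transcripts was not tested, since the counts do not separate reads in the 50 shared bases.

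**Figure D4:**
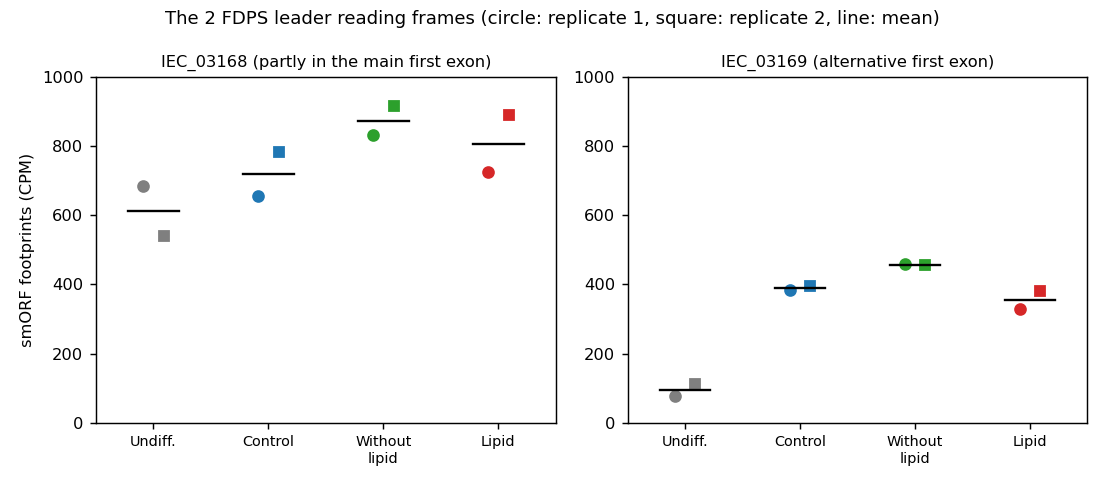
Footprints in CPM (vertical axis, same scale in both panels) on FDPS smORFs IEC_03168 and IEC_03169 in the 8 libraries, with a line at each group mean. IEC_03169 lies at 78.5 and 111 CPM in undifferentiated cells and between 330 and 458 CPM in the 6 differentiated libraries, while IEC_03168 lies between 539 and 915 CPM in all 8.

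In all, 4 of the 13 smORFs tested were called in this contrast, all higher in control cells, where 17.9% of all 15182 smORFs were called higher and 15.5% lower. They were IEC_20643, IEC_20644, IEC_03169 and IEC_07306, which make up 2 groups of overlapping frames. These 4 were also those with an unadjusted p under 0.05, a limit passed by 46.5% of all smORFs. In 5 of the 13 both control libraries were above both undifferentiated ones (35.2% of all) and in 1, IDI1 IEC_17456, both were below (34.2%), while 2 of the 13 had a fitted value below 0 (49.5%). All 4 had 0 bases in MANE Select exons, and the other 9 smORFs tested each had bases in them; this split was noticed after the values were seen. MVD IEC_14576 had 22.6 and 36.0 CPM in undifferentiated cells and 60.4 and 33.9 in control cells, and IEC_14577 had 13.6 and 8.56 CPM against 26.4 and 12.6. Both MVD frames overlapped between these groups. IDI1 had 92.1 and 78.8 CPM in undifferentiated cells and 94.3 and 92.9 in control cells, a log2 fold change of 0.13 ± 0.27.

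Marker genes with smORFs separated the undifferentiated from the differentiated libraries. Of 15 enterocyte markers 8 had a smORF and 6 were tested, of which 4 were higher in control cells, among them APOA4, and 1, APOA1, was lower. Their summed level was 1474 to 1858 CPM in undifferentiated and 3338 to 5613 CPM in differentiated libraries. Of 5 proliferation markers tested 4 were lower, with sums of 1945 to 2432 CPM against 112 to 153 CPM. The stromal sum was 63.4 and 47.9 CPM in undifferentiated and 0 to 1.33 CPM in differentiated libraries, and PDGFRA, the stromal marker tested, was called lower in control cells. REG4, the goblet cell marker measured, was also called lower, from 118 and 90.8 CPM to 0 in both control libraries. Of all host genes tested, 16.7% were called higher and 17.9% lower in control against undifferentiated cells. The leukocyte sum was 0 to 1.89 CPM over all 8 libraries. The part of these shifts in the HMGCS1 and FDPS changes was not tested, and in bulk samples fewer cells of a type and less RNA per cell cannot be told apart.

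The remaining genes of the pathway and its control were described by the same gene values. ACAT2, which makes acetoacetyl-CoA, was too low to be tested. Among the users of farnesyl diphosphate and its neighbours, 3 of 9 were tested (GGPS1, FNTA and DHDDS) and none was called in a micelle comparison. DHDDS, a subunit of the enzyme that starts dolichol synthesis, fell in control against undifferentiated cells by 1.02 on the log2 scale (adjusted p = 0.0175 by edgeR). In that comparison 17.9% of all host genes were called lower.

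Of the 12 late cholesterol synthesis genes listed, 9 were tested and 0 were called in lipid micelles against micelles without lipid. Their median log2 fold change was -0.36 against -0.015 over all host genes, and 8 of 9 were below 0, as were 51.7% of all host genes. In micelles without lipid against control, 4 of the 9 were below 0, against 47.9% of all host genes, with a median of 0.18 and none called. In lipid micelles against control 6 of the 9 were below 0, with a median of -0.13 and none called. TM7SF2, a sterol reductase, had the lowest p of these, with 324 and 406 CPM without lipid and 248 and 185 with it (unadjusted p = 0.00962, adjusted p = 0.996 by edgeR). NSDHL was the gene above 0, with a log2 fold change of 0.64 ± 0.40. SC5D and DHCR7, which act at the end of the pathway, were called higher in control than in undifferentiated cells, with log2 fold changes of 1.35 ± 0.51 and 1.09 ± 0.27. The other 7 of the 9 were not called, and 16.7% of all host genes were called higher.

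SREBF2, which encodes the regulator of this pathway, was among the 5 of 10 control and uptake genes that were tested. It had 58.5 and 59.0 CPM in control cells, 119 and 152 with micelles without lipid, and 64.5 and 88.8 with lipid micelles. Both of its libraries with micelles without lipid were above the 6 others, which was the case for 4.01% of host genes and, among the 4 genes, for IDI1. The log2 fold change was 1.21 ± 0.27 for micelles without lipid against control (adjusted p = 0.270 by edgeR) and -0.82 ± 0.25 when lipid micelles were set against micelles without lipid (unadjusted p = 0.00612, adjusted p = 0.996 by edgeR). INSIG2, which retains the SREBP complex in the endoplasmic reticulum, was called higher in control than in undifferentiated cells, at 2.72 ± 0.38. IDI2, a paralog of IDI1, had no smORF in the table.

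**Figure D5:**
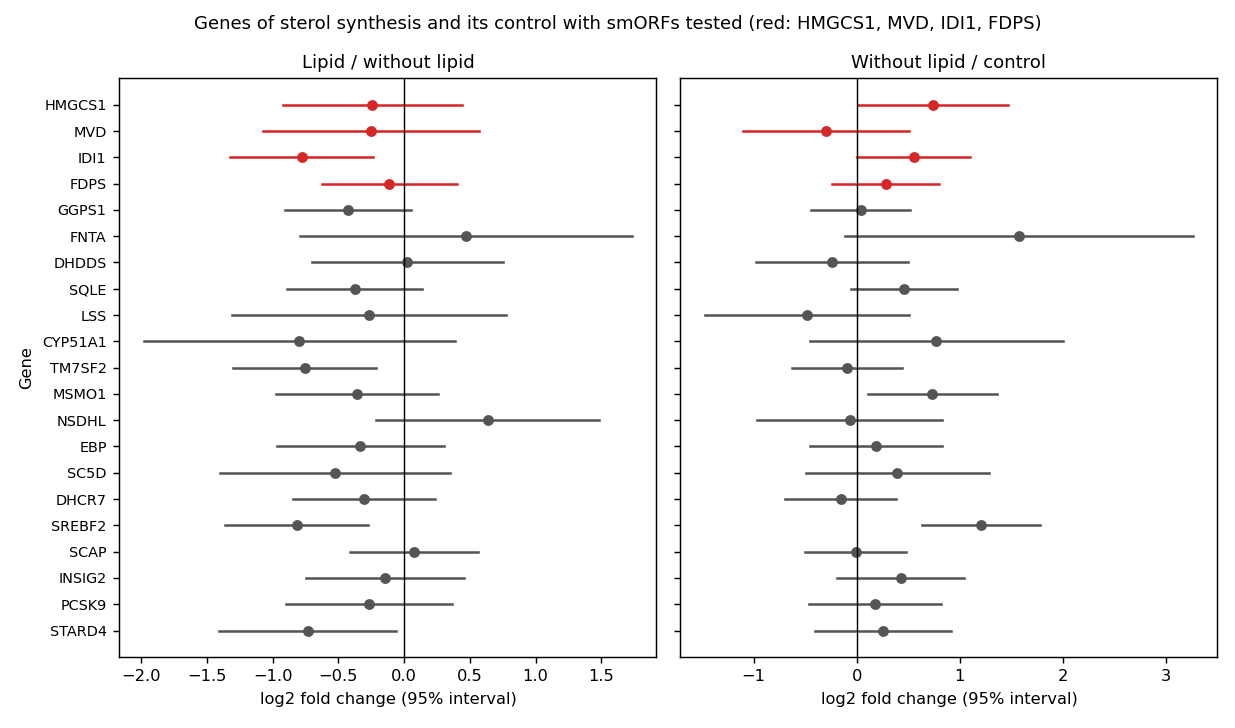
Log2 fold changes with 95% intervals (horizontal axes) of 21 genes of sterol synthesis and its control for lipid micelles against micelles without lipid (left) and micelles without lipid against control (right), with the 4 genes in red. IDI1, TM7SF2, SREBF2 and STARD4 have intervals below 0 on the left, and no gene shown was called in either comparison.

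The host genes most like each of the 4 over the 8 libraries, by Pearson's r of log2 CPM among 4837 host genes, were the following. For HMGCS1 they were IGSF9, SGK2 and NFE2L1, with r from 0.986 to 0.988. CHD1, ITGAV and KCTD11 came nearest to MVD, with r from 0.912 to 0.970. IDI1 was followed most closely by XKR9, TRAK2 and F2RL1 (0.851 to 0.926), and FDPS by B4GALT4, WAC-AS1 and HPCAL1 (0.943 to 0.978). The points are 8 libraries in 4 groups that share their depth and scaling, and the genes named are those with the highest r out of all host genes tested.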

How the data were processed

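The members and gene lists were chosen with earlier results of these data known. The authors aligned Ribo-Seq reads to hg38 with STAR (2.7.11a in the submitters' processing notes), assembled transcripts with StringTie, scored frames translated in 3 frames with RibORF across all their cell lines, and counted reads within smORF coordinates with HOMER. The deposited table holds raw counts per smORF and library, and the deposited annotation holds RibORF and PhyloCSF scores. Strand, exon and multi-mapping options of the counting are not given in the sources used here. Groups came from the labels. All 24199 smORFs were analysed, and 24143 matched hg38 exactly.

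Counts were tested with edgeR 4.0.16 (R 4.3.3; filterByExpr, TMM, quasi-likelihood F test, 1 term per group, all 8 libraries) for 15182 smORFs and, with 1 smORF per overlap cluster summed per gene, 4837 host genes. P-values are two-sided and Benjamini-Hochberg adjusted over all features tested. SEs come from the F statistic. Alternatives included DESeq2 1.42.0. Likeness used log2 CPM with a prior count of 1. The fits were tested on simulated data. Every smORF of the 4 genes was accounted for, those with at least 10 counts in a library by value. Deviations of equally numbered libraries correlated at 0.101 to 0.184 between differentiated groups, which were taken as paired by number from the data, and at -0.062 to 0.019 with undifferentiated cells. The main tests did not use this pairing, and fits with the replicate number as a block are given below as an alternative. Replicates of a group differed beyond counting noise (chi-square per degree of freedom 2.51 to 3.25; r of log2 CPM 0.874 to 0.911). Some listed genes are not reported here. Figures were drawn with Python 3.11.15 and matplotlib 3.10.9.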

Additional observations from a re-analysis of the deposited data

How the results depend on the processing

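In lipid micelles against micelles without lipid, 0 of the 4 genes and 0 of their smORFs were called under every alternative run, and the same held for both other micelle comparisons. With the replicate number as a block, the IDI1 value was -0.78 (adjusted p = 0.377 by edgeR), and the block changed no call among the 4 genes or their smORFs. For the micelle comparisons the block was fitted to the 6 differentiated libraries alone. Over all features that fit called 14 smORFs and 21 host genes in lipid micelles against micelles without lipid, 15 and 28 in micelles without lipid against control, and 1 and 6 in lipid micelles against control. The same libraries without the block gave 0 and 0, 0 and 3, and 0 and 0, and all 8 libraries gave 0 and 0, 0 and 2, and 0 and 0. With no low-count filter the counts were 23 and 14, 36 and 27, and 4 and 3.

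In control against undifferentiated cells, 3 to 4 smORFs were called when 1 library was left out, and IEC_20644 was the one lost, without either undifferentiated library (adjusted p = 0.126 and 0.0509 by edgeR) and without the first control library (0.0902); DESeq2 also left it out (0.0812). A minimum of 10 counts in every library left 2 called smORFs and 0 called genes, since HMGCS1 and its smORFs are then not tested, and 1 smORF per overlap cluster left 1. Over all features, 5070 called smORFs became 3304 by DESeq2, 1582 with that minimum and 2316 with 1 smORF per cluster, and 1672 called host genes became 698 with that minimum. There were 4 uncalled gene values that changed sign, in 3 fits with a library left out. MVD in micelles without lipid against control ran from -0.69 to 0.12 (highest without the first control library). HMGCS1 in lipid micelles against micelles without lipid ran from -0.51 to 0.073 (highest without the first library without lipid). Without the first lipid library, FDPS in that comparison (-0.27 to 0.035) and IDI1 in lipid micelles against control (-0.54 to 0.013) rose above 0. The causes were not tested.

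Precision is limited by 2 libraries per group and by counts of 4 to 38 for HMGCS1 and 15 to 32 for MVD. Reads carry PCR duplicates that counts do not resolve. RNA was not analysed here, so footprints were not set against transcript levels.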
